A study of Mus musculus with 15 samples.

Results

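The comparison described here is the response of wild-type mouse B cells to culture with lipopolysaccharide (LPS), taken from 8 of the 15 arrays of a series on RNA splicing as B cells become antibody-secreting cells. The 8 arrays were chosen by their labels: 4 wild-type (WT) arrays with LPS, numbered 1 to 4, and 4 WT arrays without LPS, also numbered 1 to 4. All mice were of the C57BL/6 strain, with no allele or transgene given for the WT animals, and their ages are not given. Primary B cells were purified from the spleen on magnetic columns. The cells without LPS were processed at once, and the cells with LPS spent 72 h in medium with LPS first. No cells were cultured without LPS, so the effects of LPS and of time in culture cannot be told apart, and "with LPS" below stands for both. The other 7 arrays, from cells with a conditional knockout of ELL2, enter only 1 alternative fit. The labels say that cells were isolated from each mouse, so arrays were treated as separate animals.

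LPS is a cell wall component of Gram-negative bacteria that B cells sense through TLR4 with MD-2 and through the related RP105 complex. Signals through MyD88, NF-kB and MAP kinases make resting splenic B cells grow, divide and, over some days, form plasmablasts. In that step the transcription factors BLIMP1 (Prdm1), XBP1 and IRF4 rise, the mature B cell programme held by PAX5 is turned off, and the cell builds the lipid, amino acid and protein supply that antibody secretion draws on. Secretory pathway and cell cycle genes are the best-known part of this response and are left aside below, except as a yardstick for the spread between arrays.

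Each array gave log2 values for exon regions and exon junctions. Exon regions of a gene were reduced to their median, here called the gene value, which gave 31350 genes with a median of 6 exon regions each, and 7643 genes rest on a single region. Values ran from 1.74 to 19.93, the array medians lay between 5.72 and 5.78, the background control rows had medians between 3.02 and 3.43, and the median gene stood at 5.09. The number of arrays limits the precision. In RNA of whole cell populations, fewer cells that express a gene and less RNA per cell cannot be told apart.

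With LPS 8086 of the 31350 genes changed, 25.8% of those tested (limma, Benjamini-Hochberg adjusted p under 0.05). Of these 4510 were higher, or 14.4% of all genes, and 3576 were lower, or 11.4%. Among the 16489 genes that reached the median level in at least 1 group, 47.9% changed, with 26.6% higher and 21.4% lower. That second set of shares is the closer yardstick for the lists of expressed genes below. The 4 arrays with LPS did not overlap the 4 without in 8773 genes, or 28.0%, and 7445 of the called genes were among them. The share of calls that were higher was 55.8% with the values as deposited, 51.9% after centring each array on its median gene and 44.9% after a further quantile normalization, so the balance of rises and falls depends on the scaling. Calls with a change of at least 1 log2 unit numbered 4185, those of at least 2 numbered 1472, and those of at least 4 numbered 356, of which 298 were rises and 58 falls.

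Rises and falls are described first for 15 genes each way, the largest that remain after the secretory and cell cycle lists and genes already known from earlier results of these data are set aside. Larger changes among the genes set aside, such as those of Fdps, Ctla4, Fcmr and Icosl, are given with their lists below. The 15 rises included genes of lipid metabolism and amino acid supply. Insig1, an endoplasmic reticulum protein that holds back sterol synthesis when sterols are plentiful, stood at 6.69, 7.54, 8.33 and 8.70 without LPS and at 15.55, 12.95, 14.36 and 15.11 with LPS. Every array with LPS lay above every array without it, with the lowest value in array 2. The rise was 6.68 ± 0.58 log2 units (SE, limma adjusted p = 3.83e-05). Fads2, the delta-6 desaturase of long polyunsaturated fatty acids, went from 4.81, 4.97, 4.95 and 5.55, near the median gene, to 11.73, 10.94, 10.83 and 11.98, a rise of 6.30 ± 0.28 (adjusted p = 9.17e-07). Slc7a5, the LAT1 carrier of large neutral amino acids, was at 7.68, 7.73, 7.51 and 8.12 without LPS and at 14.07, 13.32, 14.02 and 13.41 with it. The 2 groups of Slc7a5 values were far apart and tight, and its rise was 5.94 ± 0.21 (adjusted p = 4.95e-07).

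Immune and stress genes stood beside them. Il10, the gene of an anti-inflammatory cytokine that activated B cells can release, was at 4.98, 3.80, 3.88 and 4.43 without LPS and at 9.13, 12.22, 11.60 and 9.01 with LPS. Its arrays with LPS split widely, with 2 and 3 more than 2 log2 units above 1 and 4, and the rise was 6.22 ± 0.70 (adjusted p = 0.000183). Chac1, a glutathione-degrading enzyme induced by amino acid shortage and unfolded protein stress, rose by 6.12 ± 0.39 (adjusted p = 5.43e-06). Creb3l2, a transcription factor anchored in the endoplasmic reticulum membrane, rose by 6.26 ± 0.52, and Zbtb32, a zinc finger repressor of activated B cells, by 6.02 ± 1.05 (adjusted p = 2.96e-05 and 0.00236). The light chain locus entry Igk reached between 18.73 and 19.05 with LPS, close to the top of the scale, from 11.39 to 12.77, so its rise of 6.63 ± 0.28 may be compressed. The remaining genes of these 15 rises were Ly6c2, a surface antigen (6.49), Hid1, a trafficking protein of the Golgi (6.45), Pon3, a lactonase (6.05), Ifi27l2a, an interferon-induced gene (5.90), Pycr1 of proline synthesis (5.67), Asns, asparagine synthetase (5.61), and Oosp1 (5.43).

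The 15 falls chosen in the same way included genes of microbial sensing, cytokine response and antigen presentation in resting B cells. Tlr9, the endosomal receptor for CpG DNA, stood at 13.08, 13.65, 13.52 and 13.43 without LPS and at 5.48, 9.49, 6.80 and 10.07 with LPS. No array overlapped, but arrays 2 and 4 lay at least 2 log2 units above arrays 1 and 3, and the fall of 5.46 carried an SE of 0.88 (adjusted p = 0.00148). Il4ra, the receptor chain for IL-4 and IL-13, went from 14.19, 15.31, 15.09 and 15.12 to 8.69, 11.82, 9.39 and 10.80, and fell by 4.75 (SE 0.60, adjusted p = 0.000359). H2-DMb2, part of the DM complex that loads peptides on MHC class II, was at 16.22, 15.67, 15.74 and 15.72 without LPS and at 8.78, 12.90, 9.35 and 13.40 with it. Its arrays with LPS covered more than 4 log2 units, and its fall of 4.73 had an SE of 0.96 (adjusted p = 0.00524).

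Some of the other falls were steadier. Abca1, which exports cholesterol from the cell, was at 11.19, 10.81, 10.89 and 10.81 without LPS and at 6.01, 6.54, 6.07 and 6.02 with LPS, a fall of 4.77 with an SE of 0.16 (adjusted p = 4.60e-07). Xkrx, of the XK family of membrane proteins, fell by 5.36 (SE 0.25, adjusted p = 1.02e-06). Ltb, the lymphotoxin beta chain with which B cells shape lymphoid tissue, fell by 4.79 (SE 0.54). Il9r fell by 5.03 (SE 0.79, adjusted p = 0.00126), with 1 unstimulated array apart: array 1 was at 13.34 and the other 3 between 9.95 and 10.08. The rest of these 15 falls were Cacna1i, a T-type calcium channel (-5.15), Zfp318, needed for IgD expression (-5.10), Gdf11, a ligand of the TGF-beta family (-4.96), B3gnt5, a glycolipid synthase (-4.90), Rasgef1b (-4.83), Serpinb1a, a protease inhibitor (-4.71), Tespa1 (-4.71) and Kmo of tryptophan breakdown (-4.70).

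**Figure D1:**
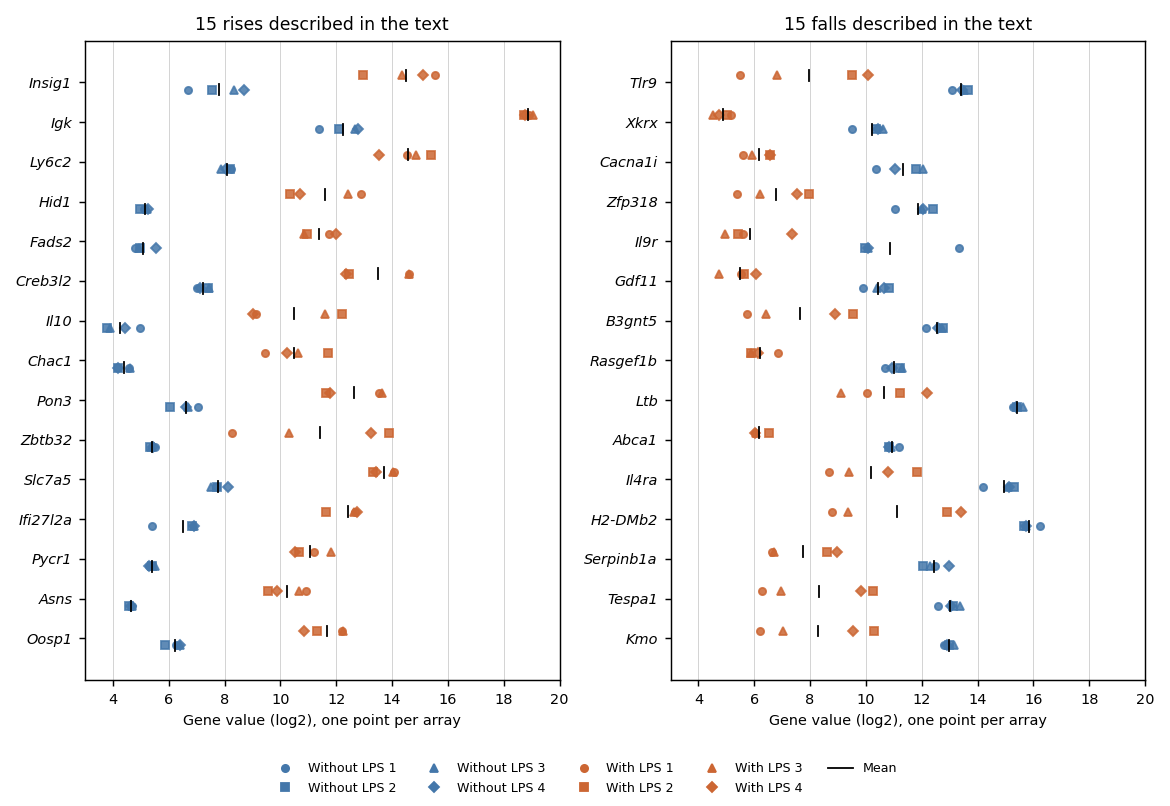
Log2 gene values of 15 rises (left) and 15 falls (right), the largest after the secretory and cell cycle lists and genes known from earlier results of these data are set aside, 1 point per array (blue, without LPS; orange, with LPS; marker shape, array number) with the mean of each group as a black bar. The groups do not overlap in any gene shown, as the rule for naming requires, and the arrays with LPS lie close together for Igk and Abca1 but more than 4 log2 units apart for Tlr9, H2-DMb2 and Zbtb32.

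The genes were then grouped in 50 lists by role. In sterol synthesis 15 of 16 measured enzymes rose, 0 fell and the median change was 2.99, beside 0.03 for all genes. At an unadjusted p under 0.05 the same counts held, 15 up and 0 down. Fdps, which makes farnesyl pyrophosphate, stood at 7.04, 7.63, 7.64 and 8.81 without LPS and at 15.65, 14.78, 14.74 and 15.16 with LPS. All 4 arrays with LPS lay at least 5 log2 units above all 4 without, and the rise was 7.31 ± 0.35 (adjusted p = 1.21e-06). Sqle, squalene epoxidase, rose by 4.83 ± 0.37 and Hmgcs1, HMG-CoA synthase, by 4.58 ± 0.49 (adjusted p = 1.86e-05 and 0.000129). Ebp, a sterol isomerase, was the exception at 0.19 ± 0.20 (adjusted p = 0.552).

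Sterol genes are known targets of the SREBP transcription factors, which bind sterol regulatory elements near the start of transcription. The promoter window of Hmgcs1 is shown because it is the only one of 13 sterol synthesis genes with a RefSeq window in which the 9-letter core TCACNCCAC was found on either strand (its reverse complement is GTGGNGTGA), against 1.44% of the 27025 genes with a window. It lies on chromosome 13, plus strand, at chr13:119690101-119690400 of GRCm38.p6, from 250 bases before to 50 after the start, with the core in capitals beginning at position -137 relative to the start.
Hmgcs1: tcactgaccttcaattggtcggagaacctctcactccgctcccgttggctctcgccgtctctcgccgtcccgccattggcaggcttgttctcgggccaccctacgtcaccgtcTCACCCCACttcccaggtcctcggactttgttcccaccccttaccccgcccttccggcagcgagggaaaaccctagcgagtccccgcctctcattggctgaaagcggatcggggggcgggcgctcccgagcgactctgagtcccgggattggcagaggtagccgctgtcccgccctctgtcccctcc
A match is a run of letters and not a measured site, and windows without it may hold other forms of the element. Hmgcs1 itself was at 6.87, 8.16, 8.49 and 8.90 without LPS and at 12.71, 11.87, 12.34 and 13.80 with LPS, the highest value being in array 4.

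Genes that move sterols did not follow in one direction. Of 17 measured, 5 rose and 5 fell, with a median of 0.20. The risers were Insig1, the master regulator Srebf2, Npc2, Stard4 and Lpcat3. The fallers were the exporters Abca1 and Abcg1, Mylip, a ubiquitin ligase that removes the LDL receptor (15.24, 14.83, 15.30 and 15.05 without LPS; 10.35, 11.70, 10.74 and 10.91 with LPS), Soat1 and Npc1. Mylip fell by 4.18 (SE 0.26, adjusted p = 4.29e-06). Abca1, Abcg1 and Mylip are known targets of the oxysterol receptors LXR. In fatty acid synthesis 7 of 14 rose and 0 fell (8 and 0 at an unadjusted p under 0.05), with a median of 0.75. The desaturases led: Fads2 as above, Scd2 by 4.05 ± 0.16 and Fads1 by 3.76 ± 0.24 (adjusted p = 6.52e-07 and 5.13e-06). Fatty acid oxidation was divided, with 5 of 15 higher, led by Acadl (1.45 ± 0.16), and 3 lower, led by the mitochondrial entry enzyme Cpt1a (-1.25 ± 0.23). Phospholipid synthesis was divided too, with 9 of 26 higher and 10 lower, and its median of 0.15 turned to -0.20 under quantile normalization. Crls1, the cardiolipin synthase, rose by 2.94 ± 0.25, while Dgka, a diacylglycerol kinase, fell by 2.08 (SE 0.16).

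Genes of amino acid supply rose more often than they fell, from uptake to tRNA charging. Of 23 transporters 13 rose and 1 fell, with a median of 1.21. Slc3a2, the heavy chain that carries LAT1 to the surface, went from 10.28, 10.44, 10.43 and 10.72 to 15.29, 16.26, 15.10 and 15.11, a rise of 4.98 ± 0.25 (adjusted p = 1.46e-06). Slc7a3, a carrier of cationic amino acids, rose by 4.97 ± 0.33, and Slc43a2, another carrier of neutral amino acids, was the one that fell (1.76, SE 0.36, adjusted p = 0.00515). Among 24 enzymes of serine, one-carbon and amino acid synthesis 14 rose and 2 fell, the methionine synthase Mtr and the glutamine synthetase Glul, with a median of 1.09. Asns stood at 4.67, 4.56, 4.67 and 4.66 without LPS, below the median gene, and at 10.90, 9.56, 10.66 and 9.87 with LPS. Its 4 unstimulated values were almost equal, and its rise was 5.61 ± 0.27 (adjusted p = 1.21e-06). The proline synthesis enzymes Pycr1 (5.67 ± 0.26) and Aldh18a1 (3.38 ± 0.27) rose with it. Cytosolic aminoacyl-tRNA synthetases, which charge tRNAs with amino acids, rose in 17 of 18 genes and fell in 0 (18 and 0 at an unadjusted p under 0.05), with a median of 2.01. Their largest rises were those of Tars (2.78 ± 0.22), Lars (2.56 ± 0.21) and Gars (2.52 ± 0.17), and Rars, at 0.44, did not pass (adjusted p = 0.0522).

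Many of these genes are known targets of ATF4, which binds amino acid response elements. The promoters of Asns and Chac1 are printed because both genes were among the 15 rises described above; this pair and the 8-letter core TGATGNAA (reverse complement TTNCATCA) were chosen after their values were seen. The core was found once in each, and 4.5% of all genes with a window held it. With the pair chosen this way, the matches are no test against that share. The core was not counted over the amino acid and tRNA synthetase lists. The Asns window lies on chromosome 6, minus strand, at chr6:7693160-7693459, and the Chac1 window on chromosome 2, plus strand, at chr2:119350992-119351291, both of GRCm38.p6 from RefSeq. The capitals mark the core, beginning at position -23 relative to the start in Asns and, on the opposite strand, at -193 in Chac1.
Asns: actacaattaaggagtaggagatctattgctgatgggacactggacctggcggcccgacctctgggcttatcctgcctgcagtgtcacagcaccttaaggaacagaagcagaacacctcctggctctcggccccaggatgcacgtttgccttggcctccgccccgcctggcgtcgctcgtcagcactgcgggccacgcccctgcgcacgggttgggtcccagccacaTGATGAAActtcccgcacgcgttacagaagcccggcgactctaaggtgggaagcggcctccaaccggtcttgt
Chac1: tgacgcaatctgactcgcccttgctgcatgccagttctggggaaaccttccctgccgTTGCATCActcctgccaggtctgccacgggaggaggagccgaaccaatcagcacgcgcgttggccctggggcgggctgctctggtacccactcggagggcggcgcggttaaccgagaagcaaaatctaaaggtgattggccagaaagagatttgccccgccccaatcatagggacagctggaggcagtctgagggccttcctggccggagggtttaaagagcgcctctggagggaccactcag
Chac1 was at 4.56, 4.18, 4.61 and 4.18 without LPS and at 9.45, 11.69, 10.62 and 10.24 with LPS, so here array 2 was the highest, whereas it was the lowest for Asns.

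Among genes of protein turnover rises outnumbered falls. Of 42 proteasome genes 29 rose and 0 fell (32 and 1 at an unadjusted p under 0.05), with a median of 1.05. The lid subunit Psmd8 rose by 3.02 ± 0.19, and the catalytic subunits Psmb2 and Psmb5 by 2.47 ± 0.35 and 2.14 ± 0.18 (adjusted p = 4.98e-06, 0.000718 and 3.08e-05). Autophagy genes rose in 13 of 27 and fell in 3 (median 0.68), with Wipi1, a phosphoinositide-binding protein of the forming autophagosome, at 3.31 ± 0.30, the ATG8 protein Gabarapl1 at 3.18 ± 0.25 and Atg13 of the initiating kinase complex at 3.07 ± 0.30. Of 33 lysosomal genes 14 rose and 4 fell (median 0.41). The membrane protein Lamp2 rose from 10.08, 10.52, 10.37 and 10.76 to 15.08, 14.01, 15.08 and 14.48, by 4.23 ± 0.25 (adjusted p = 3.63e-06), while the protease Ctsh fell by 2.39 (SE 0.60, adjusted p = 0.0157) and stayed within 1.5 units of its unstimulated level in arrays 2 and 4. Cytosolic chaperones changed in few members, 6 of 28 higher and 1 lower, and their median of 0.30 turned to -0.09 under quantile normalization.

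Lists of translation genes differed. Of 47 translation factors 25 rose and 2 fell (median 0.81). The steadiest was Eif4ebp1, a repressor of cap-dependent translation, at 6.68, 6.78, 6.82 and 6.79 without LPS and 10.10, 9.90, 9.71 and 9.83 with LPS, a rise of 3.12 ± 0.12 (adjusted p = 5.56e-07). Cytosolic ribosomal proteins had 19 of 53 higher and 5 lower with a median of 0.27, but 6 higher, 15 lower and a median of -0.22 under quantile normalization, so no direction holds for them. The 53 are those measured of 81 listed, and they are not all ribosomal protein genes of the cytosol: Mrpl23 and Zbtb11 were reached through old symbols, and Rpl10-ps1 and Rpl37rt are copies of such genes. Mrpl23, Rpl10-ps1 and Rpl37rt are among the 19. Rps27l, a p53-regulated paralogue, rose by 2.96 ± 0.26, and Rps13 fell by 1.77 (SE 0.20). Ribosome biogenesis changed in 14 of 50 genes, 8 up and 6 down, with a median of 0.08 that turned to -0.09 under quantile normalization; Gnl3 was the largest rise (1.66 ± 0.33). In mitochondria 30 of 77 ribosomal proteins rose and 6 fell (median 0.44), and 11 of 26 import genes rose and 1 fell (median 0.46). Mrpl57 of the mitochondrial ribosome rose by 1.72 ± 0.16, and Timm17b of the inner membrane translocase by 1.87 ± 0.32. The import count fell to 6 or 7 called members, from 12, without unstimulated array 2 (6), LPS array 3 (7) or LPS array 4 (7).

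In central metabolism, too, more genes rose than fell, but not every list exceeded the share of rises among expressed genes by much. The redox list had 27.3% higher and 13.6% lower, and iron and haem 30.4% and 13.0%. Genes that reached the median level in a group had 26.6% higher and 21.4% lower. Nucleotide synthesis rose in 16 of 32 genes and fell in 4 (median 0.62). Rrm2, the small subunit of ribonucleotide reductase, rose by 4.64 ± 0.36, while Rrm2b, its p53-induced counterpart in resting cells, fell by 1.62 (SE 0.20, adjusted p = 0.000342). Ada, adenosine deaminase, rose by 4.11 ± 0.37. Of 28 genes of the tricarboxylic acid cycle and pyruvate use 13 rose and 3 fell (median 0.64), led by the malate dehydrogenase Mdh1 (2.63 ± 0.30). Srm, spermidine synthase, and Odc1, ornithine decarboxylase, rose by 3.78 ± 0.24 and 2.20 ± 0.25, among 4 higher and 0 lower of 11 polyamine genes (4 and 2 at an unadjusted p under 0.05). In the redox list 6 of 22 rose and 3 fell. Txn1, thioredoxin, reached 14.19, 14.18, 14.19 and 14.33 from 10.96, 10.69, 10.98 and 11.59, and its reductase Txnrd1 rose by 2.17 ± 0.18. These arrays with LPS were among the closest of all named genes, with an SD of 0.08 for both. Iron and haem genes had 7 of 23 higher, led by Ftl1, the ferritin light chain (2.89 ± 0.51), and 3 lower, led by the mitochondrial iron carrier Slc25a37 (-2.29 ± 0.22), and the pentose phosphate pathway had 3 of 6 higher and 0 lower, at an unadjusted p under 0.05 as well. Of those 3, Taldo1 lost its call without any 1 of 6 of the 8 arrays (adjusted p between 0.0639 and 0.0909), in the fit of all 15 arrays (0.181), under quantile normalization (0.0633) and with the mean of exon regions (0.109).

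**Figure D2:**
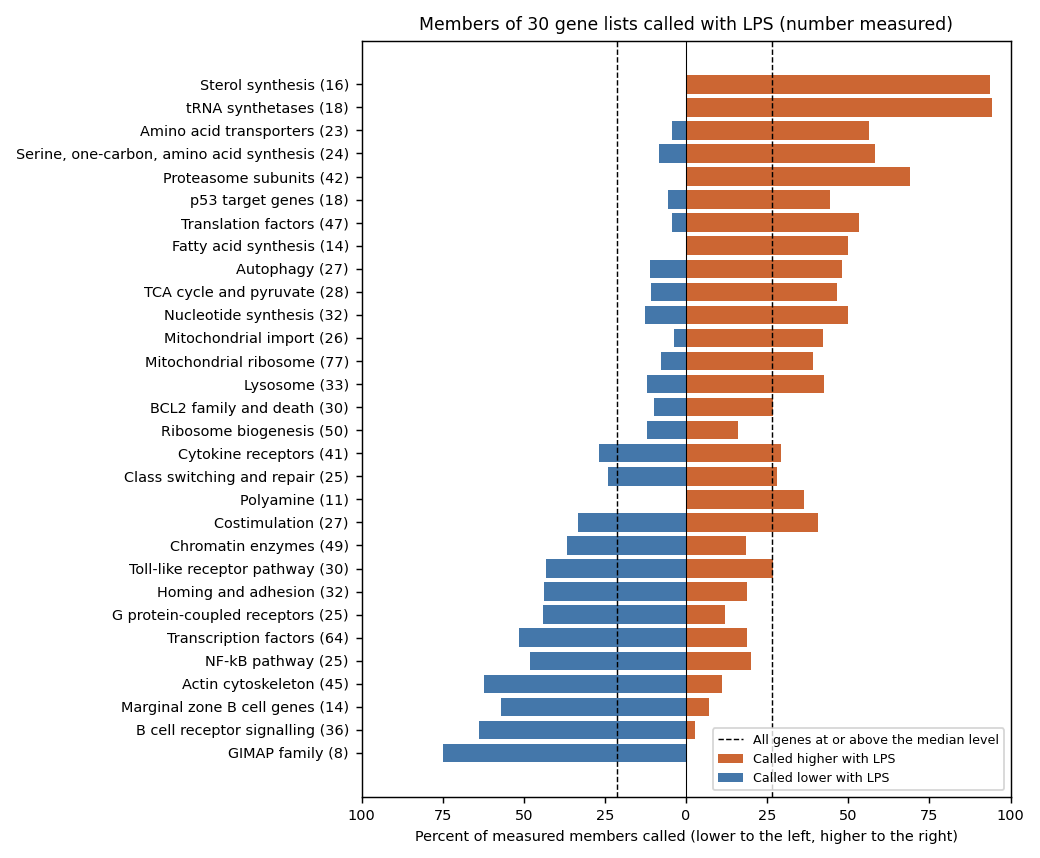
Share of measured members called higher (orange, to the right) or lower (blue, to the left) with LPS in 30 gene lists, ordered by the median change, with the number measured in brackets. Dashed lines mark the shares of all genes that reached the median level in a group, 26.6% higher and 21.4% lower; sterol synthesis (93.8%) and tRNA synthetases (94.4%) have the largest shares of rises, and the GIMAP family (75.0%) and B cell receptor signalling (63.9%) of falls.

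Several lists held more falls than rises. Of 36 genes of B cell receptor signalling 23 fell and 1 rose, with a median of -1.60. Cr2, the complement receptor CD21, stood at 17.21, 17.16, 17.15 and 16.95 without LPS and at 10.61, 11.82, 11.07 and 11.52 with LPS, and fell by 5.86 (SE 0.23, adjusted p = 6.17e-07). The inhibitory receptors Siglecg and Cd72 fell by 4.35 and 3.67 (SE 0.84 and 0.74, adjusted p = 0.00414 and 0.00499). Cd81, a tetraspanin, was the member that rose, by 1.84 ± 0.26. Cd22, another inhibitory receptor, went from between 15.99 and 16.60 to 8.11, 15.08, 10.36 and 15.07. That change of -4.26 ± 1.40 did not pass (adjusted p = 0.0509), and Cd22 was called by 6 of the 9 alternative fits to all arrays, as well as without LPS array 2 (-5.24, adjusted p = 0.0168) or LPS array 4 (-5.23, adjusted p = 0.0219).

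In the Toll-like receptor list 13 of 30 fell and 8 rose (median -0.41). The surface receptor Tlr1 fell by 5.64 (SE 0.89) from 15.07, 15.19, 15.44 and 15.32 to 6.88, 11.52, 8.74 and 11.30, and Cd180, the RP105 protein, by 3.89 (SE 0.42). Tlr4, the LPS receptor itself, fell by 1.32 (adjusted p = 0.0224), whereas its partner MD-2 (Ly96) rose by 1.43 (adjusted p = 0.00553). Tlr7, the endosomal receptor for single-stranded RNA, rose by 2.33 ± 0.37 (adjusted p = 0.00128), opposite to Tlr9. In the NF-kB list 12 of 25 fell, among them the subunits Rela, Rel, Nfkb1 and Nfkb2, and 5 rose (median -0.67). The 5 were Nfkbia, Nfkbiz, Bcl3, Tnfaip3 and Cflar, of which Nfkbia, the inhibitor induced by NF-kB, rose most (2.33 ± 0.19, adjusted p = 2.1e-05). The kinase Ikbkb and the ligase Birc3 fell by 2.15 and 2.09 (SE 0.22 and 0.25).

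The actin cytoskeleton had 28 of 45 members lower and 5 higher (median -1.16). Evl, Flna and Lcp1, which extend, cross-link and bundle actin, fell by 3.77, 3.28 and 3.03 (SE 0.72, 0.52 and 0.53). The 5 that rose were Coro1b, Coro1c, Rdx, Rac1 and the lamin Lmnb1 (0.88 ± 0.21). The GTPases of the GIMAP family, linked to lymphocyte survival, fell in 6 of 8 members and rose in 0 (8 and 0 at an unadjusted p under 0.05), with a median of -2.19, led by Gimap8 (fall of 3.08, SE 0.41). Homing and adhesion genes fell in 14 of 32 and rose in 6 (median -0.43), or rose in 10 without LPS array 2. Cnr2, the cannabinoid receptor CB2 that helps hold B cells in the marginal zone, fell by 4.62 (SE 0.33), and Selplg, the ligand of P-selectin, rose by 3.59 ± 0.26. Among other G protein-coupled receptors and their regulators 11 of 25 fell and 3 rose (median -0.54). Rgs2, a brake on such signals, fell by 4.29 (SE 0.56), and Gpr55, a lysolipid receptor, rose by 3.17 ± 0.15.

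Transcription factors fell in 33 of 64 members and rose in 12 (median -0.57). Pax5, which keeps B cell identity, was at 13.97, 14.45, 14.77 and 14.72 without LPS and at 8.09, 12.68, 10.50 and 11.79 with LPS, a fall of 3.71 (SE 0.81, adjusted p = 0.00796). Spib, an ETS factor of B cells, fell by 4.26 (SE 1.15, adjusted p = 0.0221), from between 14.30 and 14.93 to 6.69, 13.10, 9.50 and 12.06. The Spib call was lost without unstimulated array 2, 3 or 4 or without LPS array 3 (adjusted p between 0.0536 and 0.0603). The rises were led by Prdm1, from 5.77, 5.77, 6.47 and 6.40 to 13.12, 12.65, 13.63 and 12.18 (6.79 ± 0.31), and by Xbp1 (6.70 ± 0.29). Chromatin enzymes fell in 18 of 49 and rose in 9 (median -0.25). Ezh2, the polycomb methyltransferase, and Uhrf1, which copies DNA methylation, rose by 3.04 ± 0.19 and 2.49 ± 0.18, and the oxidising enzyme Tet3 fell by 2.27 (SE 0.46).

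Marginal zone B cell genes fell in 8 of 14 and rose in 1 (median -1.39). Besides Cr2 these included Tm6sf1 and Notch2, the receptor that directs marginal zone fate (falls of 3.84 and 3.82, SE 0.38 and 0.55). Plxnd1 was the riser (2.52 ± 0.65), with unstimulated array 1, at 7.68, inside the range with LPS, and the call was lost without unstimulated array 2 or 3 (adjusted p = 0.0537 and 0.0521). Genes of B1 cells, a B cell type of body cavities and spleen, were divided, with 4 of 13 higher and 4 lower. Ctla4, an inhibitory receptor, was at 4.51, 4.52, 4.88 and 4.47 without LPS and at 11.87, 11.32, 11.30 and 11.09 with LPS, one of the steadiest large rises (6.80 ± 0.18, adjusted p = 3.19e-07). Spn (CD43) and Zbtb32 rose as well, and Vim fell by 2.54 (SE 0.49).

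Messengers and their receptors held both rises and falls, most of them in shares near those of expressed genes. Genes that reached the median level in a group had 26.6% higher and 21.4% lower. In costimulation 11 of 27 rose and 9 fell (40.7% and 33.3%). Tigit joined Ctla4 with a rise of 5.28 ± 0.23, and Icosl, the ligand for T cell ICOS, fell from 12.61, 12.61, 12.46 and 12.85 to 5.15, 6.54, 5.98 and 6.68 (fall of 6.55, SE 0.30, adjusted p = 9.89e-07). Of 41 cytokine receptors 12 rose and 11 fell (29.3% and 26.8%). Il6st, the shared gp130 chain of IL-6 type receptors, rose by 4.78 ± 0.50 as Il4ra and Il9r fell. Of 30 cytokines 5 rose, namely Il10, Vegfa, Lgals1, Il6 and Ccl22, and 6 fell, among them Ltb, Lta, Tnf and Tgfb1. Vegfa, the vascular growth factor, stood at 5.71, 5.68, 5.77 and 5.50 without LPS and at 11.01, 10.87, 11.34 and 10.71 with LPS (5.31 ± 0.15, adjusted p = 3.19e-07). Channels for ions rose in 7 of 27 and fell in 10 (25.9% and 37.0%). The calcium-activated potassium channel Kcnn4 rose by 4.33 ± 0.39, and the proton channel Hvcn1 fell by 4.06 (SE 0.46).

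Survival genes and p53 targets held large rises of opposed roles. Of 30 BCL2 family and death genes 8 rose and 3 fell (median 0.19). The share that rose, 26.7%, was close to the 26.6% of genes that reached the median level in a group. The share that fell was below the 21.4% of those genes. The death-promoting Bcl2l11 (BIM) rose by 3.47 ± 0.48, and the protective Bcl2l1 (BCL-XL) rose by 3.12 ± 0.22 (adjusted p = 0.000647 and 9.72e-06). Of 18 p53 target genes 8 rose and 1 fell (median 0.82). Cdkn1a, the cell cycle inhibitor p21, was at 5.29, 5.04, 5.33 and 5.61 without LPS and at 8.29, 10.68, 9.45 and 10.26 with LPS, a rise of 4.35 ± 0.44 (adjusted p = 9.36e-05). Trp53inp1 rose by 3.53 ± 0.26. The sestrins, which damp mTORC1 when nutrients are short, moved apart: Sesn2 rose by 3.21 ± 0.26, and Sesn1 and Sesn3 fell by 2.60 and 2.82 (SE 0.18 and 0.27).

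The other lists changed in fewer members or in both directions. Immediate early genes had 6 of 32 higher and 5 lower, with Gadd45b, a stress-induced gene, at 3.52 ± 0.22. MAP kinase feedback genes had 2 of 30 higher, the phosphatases Dusp4 (4.25 ± 0.24) and Dusp14 (2.80 ± 0.20), and 9 lower. The 11 called members fell to 7 without unstimulated array 3 or without array 4. The mTOR and nutrient list had 6 of 31 higher and 6 lower, the Notch list 4 of 20 and 5, the clock list 2 of 16 and 2, and long noncoding RNAs 3 of 22 and 6, with Neat1, the paraspeckle RNA, at 2.50 ± 0.28. Notch1 rose (2.19 ± 0.19) where Notch2 fell. In MHC class I, 5 of 14 rose and 2 fell, and the median of 0.35 turned to -0.11 under quantile normalization. Nuclear transport had 12 of 48 higher and 6 lower, with a median of 0.17 that turned to -0.03 in the same way; the 18 called members fell to 10 without unstimulated array 2 and to 11 without array 3. Class switching and repair had 7 of 25 higher and 6 lower, with H2ax at 3.12 ± 0.35 and Apobec3 at -3.34 ± 0.51. Of 12 interferon-induced GTPases 1 rose, Igtp (2.24 ± 0.40), and 0 fell (1 and 1 at an unadjusted p under 0.05), and quantile normalization gave 3 falls.

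Defining markers were checked against the labels. All 11 measured B cell markers lay above the median gene in both groups; 8 fell with LPS and 0 rose (9 and 0 at an unadjusted p under 0.05), with a median of -2.50, led by Fcmr, the IgM Fc receptor, from between 17.20 and 17.38 to 7.39, 11.09, 9.24 and 11.69 (fall of 7.42, SE 0.78). Markers of other cells were mostly dim. The markers that reached the median gene without LPS numbered 8 of 12 for dendritic cells, 9 of 17 for macrophages and monocytes, 5 of 11 for red cells and platelets, 3 of 14 for neutrophils, 3 of 15 for T cells, 2 of 12 for stroma and endothelium and 1 of 12 for NK cells. The mean level of the T cell list was 5.19 to 5.45 without LPS and 4.95 to 5.17 with it, and that of the monocyte list 5.59 to 5.75 and 5.46 to 5.65. By limma the T cell markers Trac and Cd8b1 rose and Cd2, Cd8a and Zap70 fell. Cd2 was not dim: its mean without LPS was 11.23, and the next highest marker of that list, Lat, was at 6.67. The T cell genes Cd3d, Cd3e, Cd3g and Cd4 had means of 5.07, 4.33, 5.57 and 4.24 without LPS. In the other lists 1 NK cell marker, Eomes, rose and 2 fell, 1 monocyte marker rose and 6 fell, and 2 dendritic cell markers rose and 4 fell. Ly6c2, in both of the last lists, was the monocyte riser, and Bst2 the second dendritic riser (5.48 ± 0.31), genes that activated B cells also express. The calls of some dim markers were not stable. That of Eomes was lost in 6 of the 8 fits without 1 array (adjusted p between 0.0605 and 0.104), that of Cd8b1 in 4 of them (between 0.0538 and 0.0776), and those of Eomes, Cd8b1 and Trac in the fit of all 15 arrays (adjusted p = 0.485, 0.849 and 0.805). The largest falls in the dendritic and monocyte lists were those of Clec9a (-3.06 ± 0.13, adjusted p = 9.17e-07), Itgax (-1.83 ± 0.15) and Mpeg1 (-2.84 ± 0.72). Mpeg1 was not dim either, with a mean of 10.29 without LPS, and the next highest marker of the monocyte list, Ly6c2, was at 8.10. The mean of the dendritic list was 6.04 to 6.17 without LPS and higher, up to 6.93, in every array with it. That mean includes the large rises of Ly6c2 and Bst2, and the median change of the list was -0.14. The part of other cells in these changes was not tested. No neutrophil marker was called in either direction (0 up and 2 down at an unadjusted p under 0.05). Of the stromal or endothelial markers Cdh5 rose and Pecam1, which B cells also express, fell.

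The platelet genes Ppbp and Pf4 differed between the unstimulated arrays. Ppbp, a platelet chemokine, was at 9.55, 5.36, 6.16 and 7.49 without LPS and at 3.70, 3.49, 3.28 and 3.39 with LPS. Pf4, platelet factor 4, was at 8.54, 7.03, 7.28 and 7.26 without LPS and between 4.99 and 6.29 with it. Unstimulated array 1 was the highest for both. The mean of the red cell and platelet list was 5.57 there against 4.95 to 5.19 in the other 3. Other platelet markers did not all share this. Without LPS, Itga2b was at 6.32, 5.65, 5.54 and 5.56, Gp9 at 6.03, 5.62, 6.28 and 5.91, and Gp1bb at 3.34, 3.73, 3.55 and 3.59. Itga2b, Gp9 and Gp1bb were not called with LPS (limma adjusted p = 0.473, 0.208 and 0.863). Unstimulated array 1 was the lowest of the 4 for Jchain, the joining chain of secreted IgM (10.03 against 13.03, 14.75 and 15.00), and for Igk. The part of platelet RNA in the falls was not tested. Without that array 7521 genes were called, 4151 higher and 3370 lower, and the counts of the sterol, proteasome, receptor signalling and actin lists were 15 and 0, 27 and 1, 1 and 24, and 2 and 28.

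The 4 arrays with LPS did not respond to the same extent. For each array, its change was divided by the mean change of the other 3, over genes called without that array and changed by at least 1 log2 unit, and the median over genes was taken. Array 1 gave 115.3% of the change of the others, array 3 gave 110.6%, array 4 gave 86.0% and array 2 gave 72.9%. The order was the same for rises (113.9%, 112.1%, 85.4% and 77.7%) and for falls (118.4%, 108.5%, 87.5% and 68.6%). Direction was shared all the same: between 98.7% and 99.8% of these genes moved in each array as they did in the other 3. These values are descriptions without a test. The correlation of all gene values across genes with the 4 unstimulated arrays was 0.949 to 0.962 for array 2 and 0.944 to 0.957 for array 4, against 0.922 to 0.931 for array 1 and 0.927 to 0.940 for array 3. Genes are not independent replicates, and the unstimulated arrays are shared by all 4 ranges. By Xist and Y-linked Uty, arrays 1 and 4 with LPS and arrays 1 and 2 without LPS matched female mice and the others male mice, so sex was balanced between the groups and did not follow the size of the response.

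The order of the arrays depended on the genes. For the mean of the B cell markers arrays 1 and 3 fell by 3.78 and 3.19 log2 units below the unstimulated mean, and arrays 2 and 4 by 1.81 and 1.90. The secretory pathway genes had the mirror image, with rises of 3.45 and 3.26 in arrays 1 and 3 and of 2.45 and 2.53 in arrays 2 and 4. Sterol synthesis did not share it: arrays 1, 2 and 3 stood at 2.98, 2.85 and 2.75 and array 4 at 4.04. Serine, one-carbon and amino acid synthesis stood between 1.43 and 1.66, and the amino acid transporters at 1.39, 1.45, 1.67 and 1.45. The proteasome stood at 1.09, 0.89, 1.05 and 1.04, so these list means varied little. Over members, the median SD with LPS was 0.45 for the synthesis list, 0.42 for the transporters and 0.23 for the proteasome. It was 0.309 for genes at or above the median level in both groups. The mean of the B1 cell list ran the other way. It was 0.36 and 0.74 in arrays 1 and 3, and 1.59 and 1.26 in arrays 2 and 4. That list held 4 rises and 4 falls, and its members differed. Zbtb32 was at 8.26, 13.89, 10.32 and 13.26 with LPS, while Ctla4 was highest in array 1 (11.87) and Spn in array 3 (10.44). Vim, which fell, was at 6.13, 7.64, 6.33 and 7.43, so a smaller fall also raised arrays 2 and 4.

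**Figure D3:**
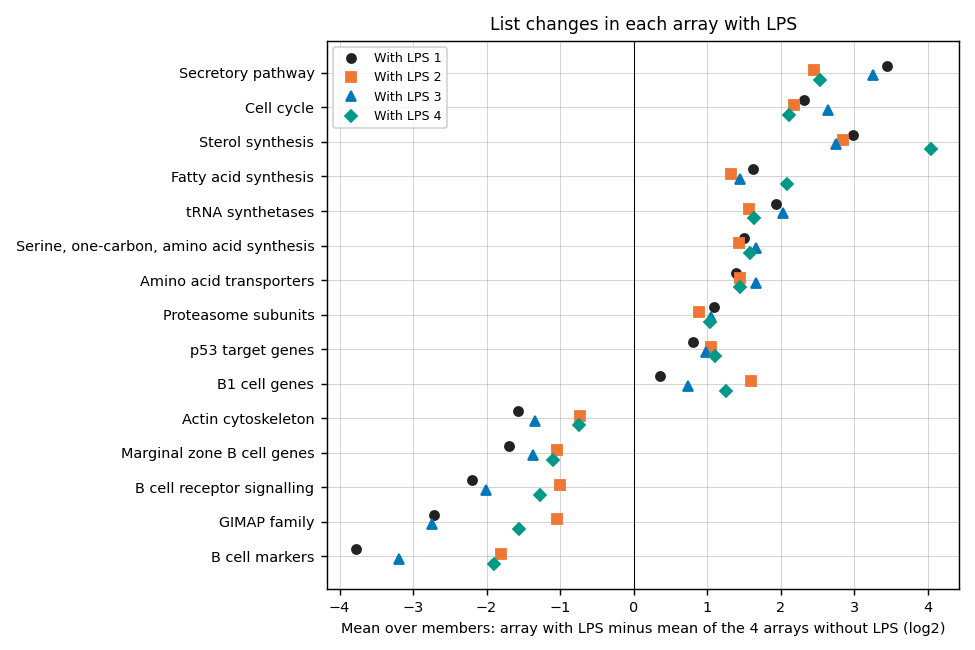
Change of 15 gene lists in each array with LPS, as the mean over members in that array minus the mean of the 4 arrays without LPS (log2 units; colour and marker give the array). Arrays 1 and 3 lie farther from 0 than arrays 2 and 4 for secretory pathway genes, B cell markers and B cell receptor signalling. The 4 arrays lie close together for the means of the amino acid and proteasome lists, and array 4 lies apart for sterol synthesis.

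Spread between arrays grew with LPS. The median SD over all genes was 0.231 with LPS and 0.192 without, and 60.4% of genes had the larger SD with LPS. An SD over 1 was found in 500 genes with LPS and 96 without. For genes called higher the median SD was 0.337 with LPS against 0.217 without, and for genes called lower it was 0.272 against 0.231. The choice of called genes favours small SDs, so these are descriptions.

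Among genes at or above the median level, the 10 largest SDs with LPS held Xist and Uty, which track the sex of the mouse, and 8 others. Fcer2a (CD23) stood at 5.86, 9.98, 7.26 and 12.29 with LPS against 15.27 to 16.00 without. Il4i1, an amino acid oxidase, was at 5.54, 11.28, 6.42 and 10.76 with LPS against 9.63 to 11.68 without, so arrays 2 and 4 stayed in the unstimulated range. Ms4a6c was near 8.6 in all 4 unstimulated arrays and at 8.06, 13.17, 9.63 and 13.84 with LPS. Its change of 2.61 ± 1.11 did not pass (adjusted p = 0.123), though it did without LPS array 1 (3.65, adjusted p = 0.0131). Spib, Cd22 and Samd9l, an interferon-induced gene, had the same order of arrays, with 1 lowest, then 3, then 2 and 4.

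A pair of these genes followed another order. Ankrd37, a hypoxia-induced gene, was at 13.42 in array 2 and at 6.05, 8.07 and 6.72 in arrays 1, 3 and 4, beside 7.23 to 7.88 without LPS. Ifi44l, an interferon-induced gene, was at 12.40, 9.03, 4.52 and 9.89 with LPS and also varied without LPS, from 4.07 to 7.21. Its change of 3.53 ± 1.45 passed only without LPS array 3 among the 8 arrays left out in turn (5.01, adjusted p = 0.00724; adjusted p = 0.111 with all arrays).

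Large changes could also be close to equal in all 4 arrays. Among called genes changed by at least 4 log2 units, the 10 smallest SDs with LPS lay between 0.14 and 0.27. They included Mfsd2a, a carrier of lysophospholipids, at 9.90 to 10.34 from 5.09 to 5.53 (4.78 ± 0.15, adjusted p = 4.6e-07), and Plaur, the urokinase receptor, at 5.91, 6.37, 6.13 and 6.21 from 11.18 to 12.34 (fall of 5.58, SE 0.28). Pgap1, of GPI anchor remodelling, Abca1, Mirt1, Scd2, Ncapg, Vegfa, Igk and Jchain made up the rest. Igk and Jchain were at 18.55 or above with LPS, where the scale leaves little room for spread.

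**Figure D4:**
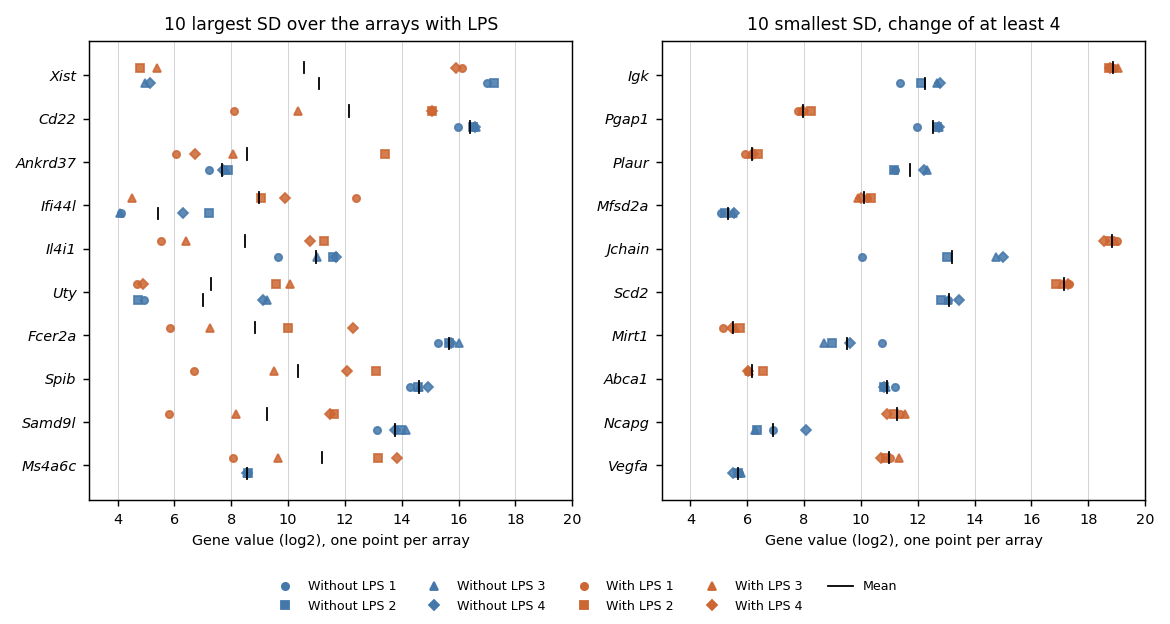
Log2 values in each array of the 10 genes with the largest SD over the arrays with LPS (left, among genes at or above the median level) and of the 10 called genes with a change of at least 4 log2 units and the smallest SD (right). Blue is without LPS, orange with LPS, marker shape gives the array number and black bars the group means; Cd22 runs from 8.11 to 15.08 with LPS on the left, while the 4 values with LPS of each gene on the right stay within 1 log2 unit.

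Within genes, exon regions and junctions did not always move together. The splicing index, the value of a row minus the gene value of the same array, was tested for 292337 rows of 10804 genes expressed in both groups, with 1 Simes p per gene. It called 7042 genes, 65.2% of those tested, and 47929 rows, and it called 4150 of the 7699 genes whose own value changed by less than 1 log2 unit, 53.9%. The calls include rows that stay near background or the ceiling while their gene moves, and rows that move while their gene value stays. Neither kind was counted, and a call here is not a count of splicing changes. Rows were not placed on the genome, and exons therefore carry no numbers. Most regions moved in the direction of their gene. In 3068 genes called higher with at least 3 exon regions the median share of regions moving up was 90.0%. In 2672 genes called lower, 91.7% moved down. The gene value is the median of these same regions, so part of this agreement is built in. All regions moved with the gene in 29.3% and 27.3% of these genes. The median share of regions also called in that direction was 53.8% and 50%. A region called in the opposite direction was found in 14.2% and 8.9% of these genes.

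The genes with the smallest p show these kinds of rows, and being chosen for them they are descriptions. In Slpi, a protease inhibitor whose gene value rose by 9.57 ± 0.34, 1 exon region stayed at 5.03, 5.33, 5.29 and 5.27 without LPS and 5.20, 5.55, 5.01 and 4.81 with LPS, near the median gene. In Derl3, of endoplasmic reticulum degradation, 1 region likewise moved by only 0.82 while the gene rose by 8.21 ± 0.29. In the variable segment Ighv1-74 the leading region was already at 18.69 to 19.37 without LPS and reached 19.82 to 19.93, at the top of the scale, while the gene value rose by 7.07 ± 0.27. Tent5c, a poly(A) polymerase of plasma cells, had the opposite form: 1 exon region went from 6.14, 6.49, 6.98 and 7.29 to 17.28, 15.80, 16.90 and 16.24, a change of 9.83, against 2.46 ± 0.26 for the gene.

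In genes whose median value changed by less than 1 log2 unit, single rows moved by several log2 units. In Psmd14, a deubiquitinase of the proteasome lid, 1 exon region rose from 11.92, 12.21, 12.25 and 12.15 to 15.46, 15.89, 16.11 and 15.95. The gene value of Psmd14, the median of its regions, changed by -0.26 ± 0.15 (adjusted p = 0.241), and the mean of its regions by 1.39 (adjusted p = 3.15e-05), so its place outside the called proteasome genes depends on that choice. In Ifitm3, an antiviral membrane protein, 1 region rose by 5.73 while the gene value changed by 0.60 ± 0.24. In Acp5, an acid phosphatase, 1 region fell from between 13.79 and 14.40 to between 8.32 and 10.14, and the gene value changed by -0.79 ± 0.33. Junction rows led in Tmtc3 (from between 9.97 and 10.32 to between 13.93 and 14.27, gene value near 5 throughout), in 1810055G02Rik (from 6.41 to 7.37 to 10.98 to 11.25) and in the variable segment Ighv14-2 (a change of 7.18, gene value -0.21 ± 0.29). The mean of exon regions passed the test also in Ifitm3 (1.77, adjusted p = 0.000137), Acp5 (-2.19, adjusted p = 2.96e-05) and Ighv14-2 (2.00, adjusted p = 0.00138), so that these genes, too, count as little changed only by the median. Variable segments are close copies of each other, so rows of the 2 Ighv genes may take signal from related segments.

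**Figure D5:**
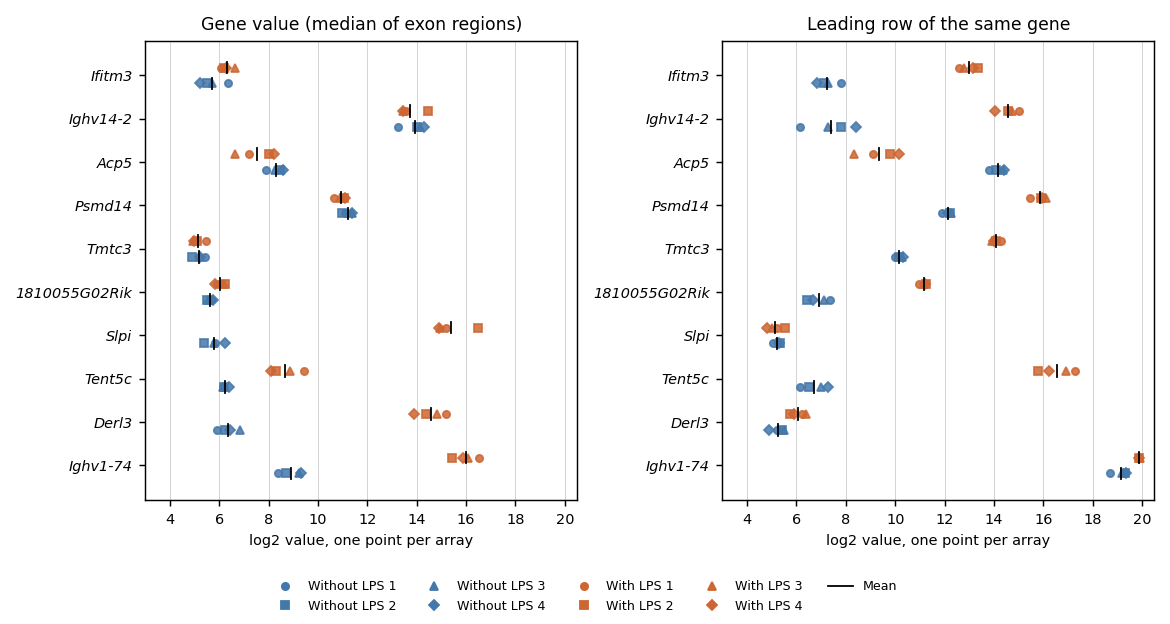
Log2 gene values (left) and the values of the row with the smallest p in the same gene (right) in each array, for 6 genes that changed by less than 1 log2 unit (top) and 4 that changed by more. Blue is without LPS, orange with LPS, marker shape the array number and black bars the group means; the leading rows of Psmd14 and Ifitm3 rise while their gene values stay in place, and those of Slpi and Derl3 stay low while their gene values rise.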

How the data were processed

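The deposited values are log2 SST RMA values, made by the authors with the Affymetrix Expression Console and RMA per the submitters' processing notes, with versions and genome build not given in the sources used here. All 15 columns matched the labels. Rows with exactly 1 gene symbol were used (580167 of 725678; 18694 had several symbols and 126817 none), and 1493 old symbols were updated through RefSeq. Each gene takes the median over its exon regions (338822 rows).

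Group means of the 8 WT arrays were compared with limma 3.58.1 in R 4.3.3 (lmFit, eBayes, two-sided, Benjamini-Hochberg over 31350 genes, calls under 0.05). Row tests needed at least 3 rows, a gene value of at least 5.09 in both groups and row means at or above the 25th percentile of rows (4.24). The gene and row tests were tested on simulated data. WT array pairs shared 10 to 127 identical rows, so none was a duplicate. Replicate numbers did not pair all samples, as sex differed within numbers 2 and 4. Within numbers 1 and 3 sex matched, so pairing there is not settled. Deviations of same-numbered arrays correlated at 0.18, -0.03, 0.10 and 0.003. Arrays with unlike numbers correlated at -0.16 to 0.11. Whether the same mice gave cells to both groups, under numbers 1 and 3 or under unlike numbers, was not tested.

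Members and lists were chosen with earlier results of these data known, and of 1868 list genes 1762 were measured; the others were not analysed here. Named were the 15 largest rises and 15 largest falls without overlap that remained outside the secretory and cell cycle lists, genes known from earlier results of these data, predicted genes and receptor segments, up to 3 called members per list plus the largest in the other direction and members of small counts, 10 genes each of largest and smallest SD, and 10 genes for rows. Some list members with a role in the text were named beyond this, after their values were seen.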

Additional observations from a re-analysis of the deposited data

Results flagged for a closer look

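In 564 groups of 4 arrays, the highest or lowest value of 31 (5.5%) lay farther from its nearest neighbour than Dixon's critical value allows, and chance alone marks about 1 in 20 groups. Of the 31, 16 were values of unstimulated array 1. That array was high for Il9r (13.34), H2-DMb2 (16.22), Rgs18 (9.83), Plxnd1 (7.68) and Pf4 (8.54). It was low for Ifi27l2a (5.40), Snhg20 (8.27), Hvcn1 (10.20), Psmb9 (10.17), Nme2 (7.10), Gsr (4.97), Flna (12.53), Gimap5 (13.12), Cd2 (10.07), Cd22 (15.99) and Pgap1 (11.97). Among the other unstimulated arrays, array 2 stood apart for Asns (4.56) and the T cell receptor gene Trac (5.52), array 3 for Ctla4 (4.88), and array 4 for Acadl (9.04) and Tent5c (6.38).

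With LPS, array 1 stood apart for Lars (11.66), Hsf1 (7.26) and the mean of the Notch list (8.23). Array 2 stood apart for Ifi27l2a (11.63), Abca1 (6.54), Slc3a2 (16.26) and Ighv14-2 (14.45). Array 3 was high for Spn (10.44), and array 4 for Txn1 (14.33) and Cdh5 (6.09). Several of these gaps are small in size: the 4 unstimulated values of Asns spanned 4.56 to 4.67, and those of Txn1 with LPS 14.18 to 14.33.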

How the results depend on the processing

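The 8086 called genes became between 6545 and 8410 when 1 array was left out, and 7669 in a fit of all 15 arrays. A test against a change of 1 log2 unit kept 1483. The 7042 genes with unequal rows became between 5046 and 7418 without 1 array, 10606 with no filter on dim genes and rows, and 4150 over genes that changed by less than 1 log2 unit. Labels give both groups the numbers 1 to 4, which did not pair all of the samples. With number as a replicate block 7973 genes and 6068 genes with unequal rows were called. Of 210 called genes named in the text or counted by its rule, 201 kept the call whichever array was left out, 194 kept it under every other alternative but the size threshold, and 0 reversed. Taking the mean in place of the median of exon regions raised the called members of the polyamine list from 4 to 7, redox from 9 to 14, chaperones from 7 to 12 and BCL2 family from 11 to 17. The cause of these differences was not tested. Genes near background or near the top of the scale have compressed changes.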
